A study of Homo sapiens with 3 samples.

Results

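Genes that mark the squamous, neuroendocrine and tuft-cell lineages of lung cancer were examined in the chromatin of H2087 cells, a line established from a human adenocarcinoma of the lung. The 9 genes were fixed by name as TP63, NEUROD1, INSM1, CHGA, CHGB, DLL3, NCAM1, SCG2 and POU2F3, and they are 9 of the 20163 protein-coding genes of the annotation. Chromatin immunoprecipitation with sequencing (ChIP-seq) had been carried out on untreated H2087 cells with antibodies to H3K27ac, the acetylated form of a lysine in the tail of histone H3, and to H3K4me3, a trimethylated one. The labels describe 1 library for each mark and 1 input library, and the peak lists of the 2 marks were analysed here. Every interval over a gene body or within 50 kb of it was taken. With 1 library for each mark there was no replicate, no test was possible, and all values describe these libraries. The lists hold no read counts, so the sequencing depth is unknown, and where a peak is missing, a lack of the mark and a lack of reads cannot be told apart.

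H3K4me3 lies mainly at the starts of genes that are transcribed or poised, and H3K27ac lies at active promoters and enhancers. Lung adenocarcinoma usually keeps features of the glandular and alveolar epithelium, whereas squamous carcinoma relies on the transcription factor p63 and small cell carcinoma on neuroendocrine factors such as NEUROD1 and, in a tuft-like variant, on POU2F3. Neuroendocrine cells store hormones in dense-core granules, whose matrix is built by chromogranins and secretogranins. The peaks called at these lineage genes are described here for an adenocarcinoma line. Expression was not analysed, and a missing peak does not show that the line lacks a lineage feature.

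None of the 9 genes had a peak of either mark within 1 kb of its own start. Among all protein-coding genes, 23.6% (95% interval 22.99 to 24.2) had an H3K27ac peak and 38.2% (37.5 to 38.9) an H3K4me3 peak at that distance, and 56.8% had neither. When every annotated transcript start of a gene was allowed, POU2F3 alone gained an H3K27ac peak, beside a start far inside the gene, and still no gene had H3K4me3, against 30.7% and 45.4% of all protein-coding genes. Over the gene body, 3 of 9 genes (TP63, CHGB and POU2F3) had H3K27ac and 3 of 9 (TP63, CHGB and NCAM1) had H3K4me3, while the shares over all protein-coding genes were 36.8% and 46.4%. With the surrounding 50 kb included, 4 of 9 genes had H3K27ac and 7 of 9 had H3K4me3, against 63.9% (63.3 to 64.6) and 70.2% (69.5 to 70.8) of all genes. The counts over the wider windows were thus near the background shares. INSM1 and SCG2, 2 of 9, had no peak of either mark in their windows, as did 23.6% of all protein-coding genes.

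The windows of the 9 genes held 27 peaks, 13 of H3K27ac and 14 of H3K4me3. Within 1 kb of a transcript start of another protein-coding gene lay 5 peaks of H3K27ac and 8 peaks of H3K4me3, at OAF, TLCD5, ARHGEF12, CERKL, TIMM50 and EID2. Only 8 peaks overlapped the body of a listed gene, 4 of each mark. The window of POU2F3 alone held 11 of the 27 peaks, and without it 6 H3K27ac and 10 H3K4me3 peaks were left.

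**Figure D1:**
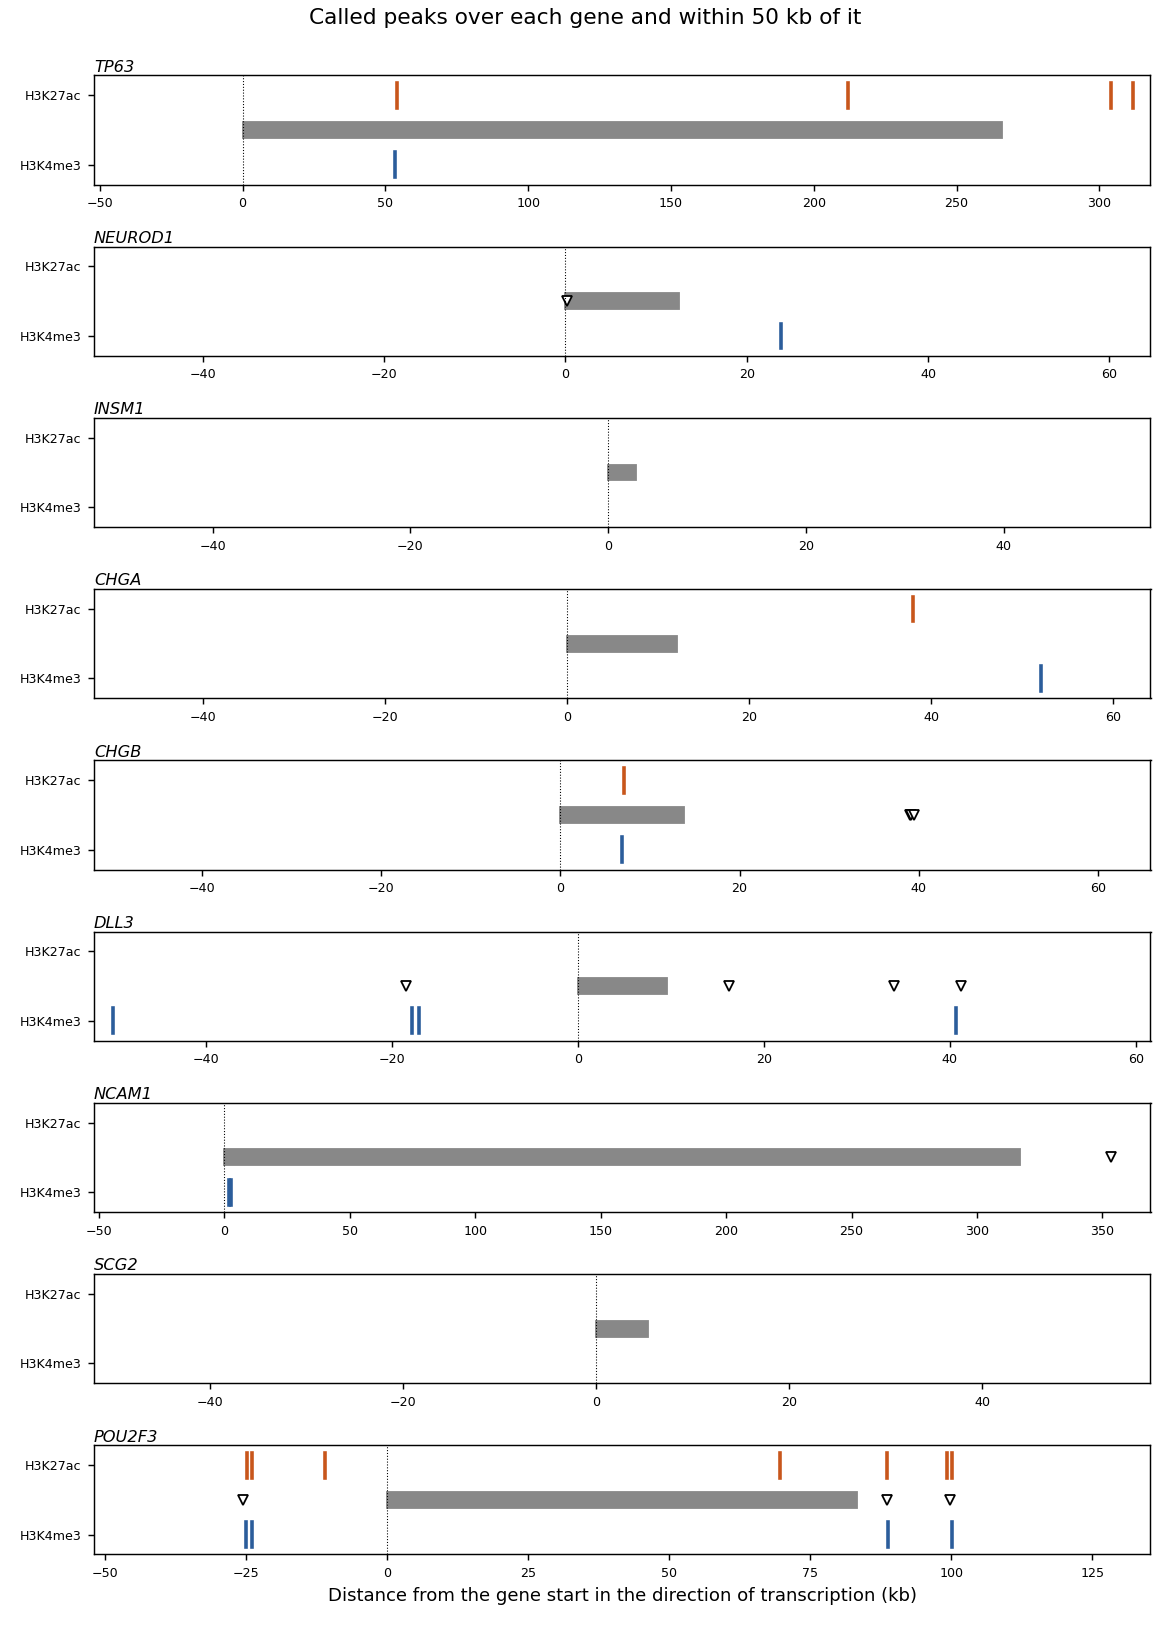
Each panel shows the window of 1 gene, with distance from the gene start in the direction of transcription on the x axis (kb), the gene body as a grey bar, peaks as orange (H3K27ac) or blue (H3K4me3) ticks and starts of other protein-coding genes as open triangles. The panels of INSM1 and SCG2 are empty, and the ticks around POU2F3 lie mostly beside the triangles.

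The sequences upstream of CHGA and SCG2 are shown first because they hold a recognisable promoter element although no peak was called there. The 3 granin genes CHGA, CHGB and SCG2 each held the cyclic AMP response element TGACGTCA (CRE, which CREB-family factors bind) in the 250 bases before the start of the canonical transcript. The reference sequences of hg19 are given 5′ to 3′ in the direction of transcription and end at the base before the start. Motif letters are in capitals, for SCG2 also those of the TATAAA motif.
CHGA, chr14:93389245-93389494, plus strand: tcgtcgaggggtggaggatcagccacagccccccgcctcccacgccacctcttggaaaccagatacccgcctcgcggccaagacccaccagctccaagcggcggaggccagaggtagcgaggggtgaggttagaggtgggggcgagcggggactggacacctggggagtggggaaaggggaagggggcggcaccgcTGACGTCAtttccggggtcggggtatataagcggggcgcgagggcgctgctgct
SCG2, chr2:224467080-224467329, minus strand: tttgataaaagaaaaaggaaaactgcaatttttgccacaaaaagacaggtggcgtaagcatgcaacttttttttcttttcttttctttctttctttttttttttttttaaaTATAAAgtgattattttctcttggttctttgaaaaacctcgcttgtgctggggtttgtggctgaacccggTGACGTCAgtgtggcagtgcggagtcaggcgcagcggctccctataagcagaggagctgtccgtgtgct

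The CRE began 54 bases before the start of CHGA and 69 before that of SCG2. TGACGTCA, which reads the same on both strands, occurred in 2.40% of 19861 upstream windows of equal length from all protein-coding genes. The E-box CAGATG, of the kind bound by NEUROD1 and related factors and searched on both strands, occurred in 9.10% of these windows and in 2 of the 9 here, at INSM1 and NCAM1. The octamer motif ATGCAAAT, a site bound by POU2F factors, was found upstream of POU2F3 itself, 100 bases before its canonical start, and in 1.54% of all windows. TATAAA was found in 1 of the 9 windows, where it began 139 bases before the start of SCG2, and in 9.26% of all. The repressor element RE1 was searched as CAGCACC and GGACAG with any 2 bases between them and was found in none of the 9 windows and 0.0554% of all. No member window held the AP-1 motif TGANTCA (4.70% of all windows) or the forkhead motif TGTTTAC (2.06%). None of the motifs found overlapped another. In the central 180 bases of the peaks, CAGATG was found in 3 of 13 H3K27ac peaks (11.7% of that list) and in 1 of 14 H3K4me3 peaks (8.68%).

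The base composition around the starts differed among the genes. In the 1 kb centred on the canonical start, 7 of the 9 genes had a GC content over 50% and a ratio of observed to expected CpG over 0.6, here called CpG-rich. INSM1 had the highest values of the 9, with 76.0% GC and a ratio of 0.970, and its ratio was above that of 96.6% of the protein-coding starts. NEUROD1 (51.5% and 0.727), NCAM1 (54.2% and 0.730), CHGB (61.4% and 0.719), DLL3 (63.7% and 0.686), CHGA (69.1% and 0.687) and POU2F3 (66.4% and 0.628) lay between the limits and INSM1. SCG2 (37.1% GC, ratio 0.583) and TP63 (39.2%, 0.365) were not CpG-rich. Among all protein-coding genes, 53% of 12917 CpG-rich starts and 12.1% of 6944 other starts had H3K4me3 within 1 kb of the gene start, and for H3K27ac the shares were 31.5% and 9.79%. None of the 7 CpG-rich starts and neither of the other 2 had a peak of either mark.

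**Figure D2:**
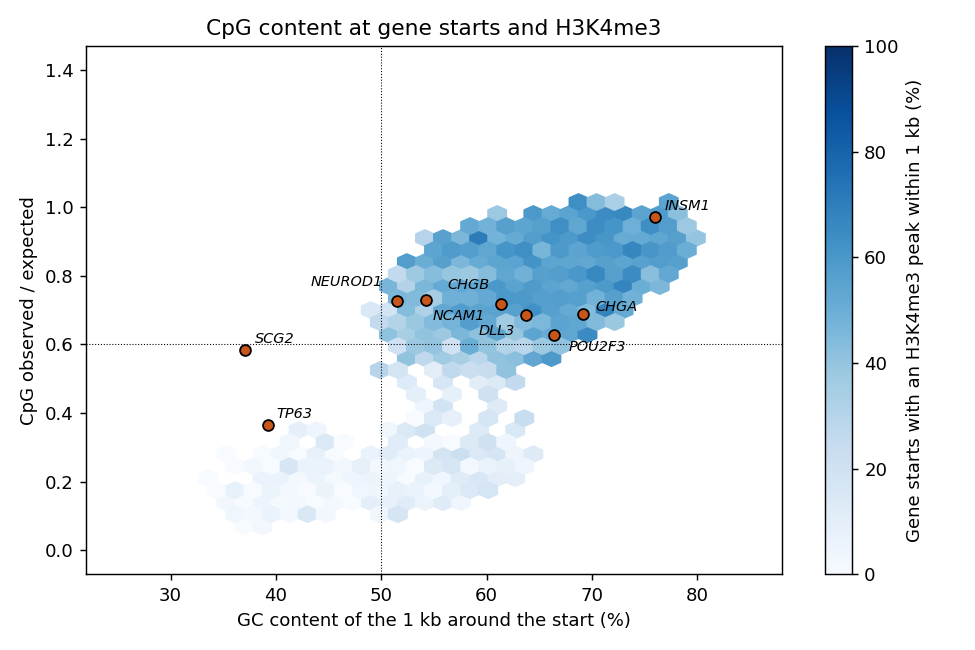
GC content (x axis, %) and the ratio of observed to expected CpG (y axis) in the 1 kb around the canonical start, with each hexagon coloured by the share of protein-coding gene starts in it that had H3K4me3 within 1 kb (those with under 20 starts are left blank) and dotted lines at 50% and 0.6. The 9 genes are orange points, 7 of them in the upper right part where the hexagons are darker, and SCG2 and TP63 lie to the left of it.

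The distance from each start to the nearest peak ranged widely. For H3K27ac it was 7.02 kb at CHGB, 11.0 kb at POU2F3, 37.8 kb at CHGA, 53.9 kb at TP63, 60.4 kb at DLL3, 93.3 kb at SCG2, 182 kb at INSM1, 424 kb at NCAM1 and 1674 kb at NEUROD1. The median of these values was 60.4 kb, beside 30.1 kb (interquartile range 1.20 to 154) over all protein-coding genes. For H3K4me3 the nearest peak lay 1.55 kb from the start of NCAM1, 6.77 kb from CHGB, 16.9 kb from DLL3, 23.6 kb from NEUROD1, 23.9 kb from POU2F3, 52.0 kb from CHGA, 53.3 kb from TP63, 93.9 kb from SCG2 and 316 kb from INSM1, with a median of 23.9 kb against 12.1 kb (0.321 to 103) over all genes. The order of the genes differed between the marks, and NCAM1 and NEUROD1 were much closer to H3K4me3 than to H3K27ac. No spread between replicates exists to say which neighbours in these orders differ.

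**Figure D3:**
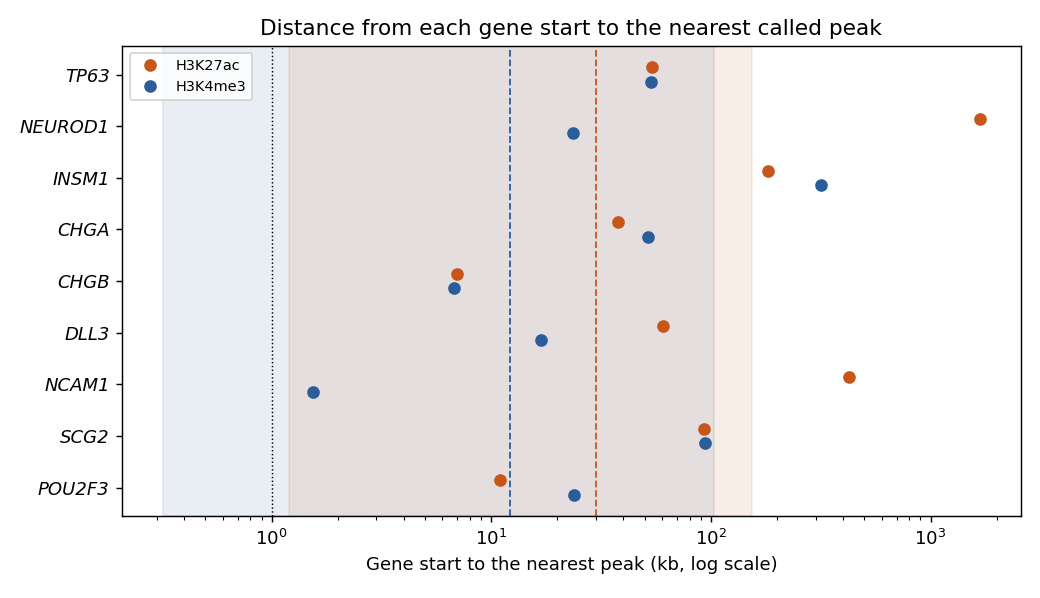
Distance from the start of each of the 9 genes to the nearest peak edge (x axis, kb, log scale) for H3K27ac (orange) and H3K4me3 (blue). Dashed lines are the medians and shaded bands the interquartile ranges over all protein-coding genes, and every point lies to the right of the dotted line at 1 kb.

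TP63 encodes p63, the master regulator of basal and squamous epithelium. It spans 189349178 to 189615065 on chromosome 3 (plus strand, 266 kb), and its window held 4 H3K27ac peaks and 1 H3K4me3 peak. The first group of transcript starts, at 189349178 to 189349305, gives the full-length forms, and the second, at 189507448 to 189507590, gives the amino-terminally truncated forms that predominate in squamous cells. The nearest H3K27ac peak to the first group was 53.8 kb away and to the second 53.4 kb away, and for H3K4me3 the distances were 53.2 and 105 kb. Neither promoter therefore had a called peak nearby. Intron 1 held an H3K27ac peak with a −log10 q of 1.39, higher than only 1.66% of its list, and an H3K4me3 peak with a −log10 q of 2.21, higher than 25.2% of its list. These 2 peaks were 477 bp apart and did not overlap. The H3K27ac peak is shown because intron 1 is the only place in TP63 where the marks lie near each other (CpG dinucleotides in capitals).
TP63 intron 1, H3K27ac peak, chr3:189403122-189403364, plus strand: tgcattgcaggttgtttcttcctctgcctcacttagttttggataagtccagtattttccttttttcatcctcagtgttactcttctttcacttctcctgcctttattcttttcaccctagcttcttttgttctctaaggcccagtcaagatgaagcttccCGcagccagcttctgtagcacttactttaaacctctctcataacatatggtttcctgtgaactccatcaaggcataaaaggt

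Repeated sequence was measured with words of 32 bases. Of the 8 words of the H3K4me3 peak, taken every 20 bases, 62.5% occurred more than once in the assembly, the most frequent 1295 times. No word of the H3K27ac peak was repeated. Among all peaks, 9.44% of the H3K4me3 list and 12.7% of the H3K27ac list had over 50% repeated words. In the 9 windows this held for 2 of 14 H3K4me3 peaks and 1 of 13 H3K27ac peaks. Intron 4 of TP63, downstream of both groups of starts, held an H3K27ac peak at 189561009 to 189561351 with a −log10 q of 2.80, above 52.4% of the list. The remaining H3K27ac peaks lay outside any gene, 37.8 and 45.5 kb beyond the end of TP63, with −log10 q of 3.55 and 3.02, and were closer to a transcript start of P3H2, at 28567 and 20885 bp, than to any start of TP63.

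NEUROD1 encodes a basic helix-loop-helix activator of neuroendocrine differentiation. It lies at 182533022 to 182545554 on chromosome 2 (minus strand), overlapping the outermost starts of CERKL, a ceramide kinase-like gene. Its window held no H3K27ac peak and 1 H3K4me3 peak, at 182521584 to 182521922 with a −log10 q of 2.63, above 39.1% of the list. This peak was 11.1 kb beyond the end of NEUROD1 and covered the first exon and the start of the canonical CERKL transcript. None of its words was repeated. INSM1, a zinc-finger factor required for neuroendocrine cells, is a single-transcript gene at 20348748 to 20351593 on chromosome 20 (plus strand), and its window of 103 kb was empty for both marks.

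CHGA, CHGB and SCG2 encode the granule proteins chromogranin A, chromogranin B and secretogranin II. CHGA (chromosome 14, 93389495 to 93401630, plus strand) had no peak over the gene. Its window held an H3K27ac peak with a −log10 q of 3.39 at 93427256 to 93427686, in intron 7 of ITPK1, an inositol phosphate kinase gene, and an H3K4me3 peak with a −log10 q of 1.83 at 93441463 to 93441774 in intron 5 of the same gene. They were 25.6 and 39.8 kb beyond the end of CHGA, and 13777 bp from each other. SCG2 (chromosome 2, 224461658 to 224467079, minus strand) had no start of another protein-coding gene in its window, which held no peak.

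CHGB (chromosome 20, 5892156 to 5905999, plus strand) was the only member with overlapping marks inside the gene. In intron 3, 7.02 kb from the start, an H3K27ac peak (−log10 q 2.82, above 52.9% of its list) and an H3K4me3 peak (2.23, above 27.3%) had 17 bp in common. All 10 words of the H3K27ac peak occurred more than once in the assembly, the most frequent 21577 times, whereas 8.33% of the words of the H3K4me3 peak did. The 17 shared bases are the first of the H3K27ac peak and lie in a repeated word. Whether repeated sequence gave rise to the overlap was not tested. Without the repeated peaks, H3K27ac was left over the body of TP63 and POU2F3 only, and H3K4me3 over that of CHGB and NCAM1 only.

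DLL3 is an inhibitory Notch ligand and a surface target of small cell carcinoma. It lies at 39989535 to 39999121 on chromosome 19 (plus strand) among closely spaced genes. There was no H3K27ac peak in its window and no H3K4me3 peak over the gene, and the 4 H3K4me3 peaks nearby belonged to the surroundings. They were at TIMM50, a subunit of the mitochondrial import machinery (−log10 q 1.55 in exon 1 and 2.23 in exon 2), in exon 1 of EID2 (2.23) and in intron 2 of SUPT5H, a transcription elongation factor gene (2.83). The peak in SUPT5H had 72.7% repeated words. All 4 values lay below the median of the H3K4me3 list, 2.97.

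NCAM1 encodes the neural cell adhesion molecule CD56, used as a neuroendocrine marker in pathology. It spans 112831997 to 113149158 on chromosome 11 (plus strand, 317 kb) and had no H3K27ac peak in a window of 417 kb. Both of its H3K4me3 peaks were in intron 1, at 112833549 to 112833732 (−log10 q 1.39, above 3.85% of the list) and at 112834333 to 112834554 (2.00, above 21.4%). They lay 1.55 and 2.34 kb from the outermost start of NCAM1 and 244 and 151 bp from transcript starts of an antisense long noncoding RNA gene (ENSG00000247416), so the 2 genes cannot be told apart as the site of the mark. The peak nearest to the NCAM1 start is shown with its 18 CpG dinucleotides in capitals.
NCAM1 intron 1, H3K4me3 peak, chr11:112833549-112833732, plus strand: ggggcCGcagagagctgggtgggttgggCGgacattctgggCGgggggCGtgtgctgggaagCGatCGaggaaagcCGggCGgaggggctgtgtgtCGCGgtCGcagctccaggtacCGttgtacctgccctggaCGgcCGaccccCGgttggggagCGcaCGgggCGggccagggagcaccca
This sequence had a GC content of 72.8%, and none of its words was repeated. A distance of 3 kb in place of 1 kb counted NCAM1 as having H3K4me3 at its start, the only one of the 9 genes that this changed.

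POU2F3, a POU-domain factor of tuft cells that also acts in the epidermis, had the most peaks in its window among the 9 genes. It lies at 120107349 to 120190654 on chromosome 11 (plus strand), with OAF upstream and TLCD5 and ARHGEF12 downstream. Its window held 7 H3K27ac and 4 H3K4me3 peaks, and 12.6% and 21.2% of protein-coding genes had more, whatever the length of their windows. Per 100 kb of window it held 3.82 H3K27ac and 2.18 H3K4me3 peaks, while the DLL3 window held 3.65 H3K4me3 peaks. Around the starts of OAF, H3K27ac had −log10 q of 2.67 and 1.74 and H3K4me3 4.91 and 2.26. At TLCD5 the value was 3.40 for H3K27ac and 5.61 for H3K4me3, the highest of all 27 peaks. At ARHGEF12 they were 2.16 and 3.17 for H3K27ac and 3.89 for H3K4me3. These 3 neighbouring starts had both marks, and overlaps of 321, 232, 186 and 381 bp were found there, while the start of POU2F3 between them had none.

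The other 2 H3K27ac peaks of the POU2F3 window lay away from these neighbouring starts and overlapped no H3K4me3 peak. The first lay 11.0 kb upstream of the gene in exon 2 of OAF (120096087 to 120096374, −log10 q 3.35). The other, at 120176818 to 120177274, was in intron 8 of the canonical transcript and had the highest value of the 13 H3K27ac peaks, 3.95, above 81.0% of the list. Its edge was 465 bp downstream of 120176353, where a short coding transcript of POU2F3 begins inside the gene, and 0.621 kb downstream of the start of a transcript without an annotated coding sequence. The nearest H3K4me3 peak was 18475 bp away. Its central 300 bases are shown (CpG dinucleotides in capitals), and no word of the peak was repeated.
POU2F3 intron 8, H3K27ac peak, chr11:120176897-120177196, plus strand: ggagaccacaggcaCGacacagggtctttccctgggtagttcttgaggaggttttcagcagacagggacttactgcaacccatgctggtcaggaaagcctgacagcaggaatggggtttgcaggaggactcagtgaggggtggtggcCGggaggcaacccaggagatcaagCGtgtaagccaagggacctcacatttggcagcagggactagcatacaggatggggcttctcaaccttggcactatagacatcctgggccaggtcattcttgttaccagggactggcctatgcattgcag
With 3 CpG in 300 bases it differed in composition from the NCAM1 peak above.

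The values of the peaks around the 9 genes were compared with their own lists. In the H3K27ac list they ranged from 1.39 to 3.95 with a median of 3.02, beside a list median of 2.65 (interquartile range 1.89 to 3.55), and 10 of 13 were above the list median. For H3K4me3 they ranged from 1.39 to 5.61 with a median of 2.23, beside a list median of 2.97 (2.20 to 4.33), and only 3 of 14 were above it, all of them at neighbouring genes of POU2F3. The 4 H3K4me3 peaks over gene bodies had values of 1.39, 2.00, 2.21 and 2.23. None of the H3K27ac peaks reached 5, a value reached by 8.84% of that list. Every one of these peaks had 1 summit except the H3K4me3 peak at TLCD5, which had 2.

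**Figure D4:**
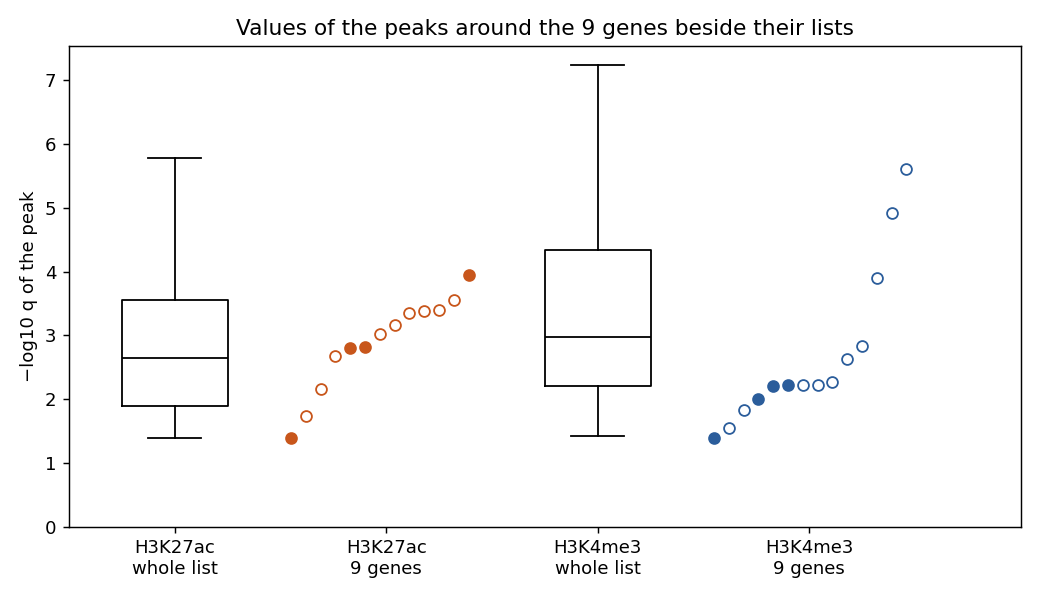
The −log10 q (y axis) of all peaks of each list as a box (median and quartiles, with whiskers from percentile 5 to percentile 95) and of each peak around the 9 genes as a point, filled where it overlaps the gene body and open where it lies outside. The filled H3K4me3 points are all below the median line of the list, and the highest open ones, up to 5.61, lie at starts next to POU2F3.

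Starts of other genes in the same windows were counted in the same way. Of 12 other protein-coding starts there, 5 had H3K4me3 within 1 kb and 3 of these also had H3K27ac. The shares over all protein-coding genes were 38.2% and 23.6%, so these counts were near the background. TRMT6, a tRNA methyltransferase subunit gene, and MCM8, a replication helicase gene, share a divergent start region 39.0 and 39.1 kb from the start of CHGB, and both were without a peak, the nearest being 31.8 and 31.9 kb away for H3K27ac. A missing peak in these lists was thus also found at starts of genes that many cell types use.

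Other genes of the same programmes were examined at the same distance of 1 kb, at which 56.8% of all protein-coding genes had neither mark. Of 26 further neuroendocrine genes, 24 had neither mark at the start, among them SYP (synaptophysin), CALCA, GRP and DDC. The exceptions were HES6 with H3K4me3 (−log10 q 3.83) and ENO2 with H3K27ac (1.31, close to the lowest value of the list), and ENO2 also had H3K4me3 at another of its transcript starts. For 13 of the 26 neither mark was found over the gene or within 50 kb, beside 23.6% of all protein-coding genes. Of 13 further squamous genes, 10 had neither mark at the start, including KRT5, KRT6A and KRT14, keratins of basal and squamous cells. Over the gene or within 50 kb, only 3 of these 13 had neither mark, near the share of all protein-coding genes. SOX2, a partner of p63 in squamous carcinoma, had both marks with low values (2.16 for H3K27ac and 1.43 for H3K4me3), BCL11A had H3K4me3 (5.66) and FAT2 had H3K27ac (3.69). TRIM29 had H3K27ac at another of its transcript starts. DSG3, DSC3 and SERPINB5 lie on chromosome 18, where the nearest H3K27ac peak was 3896, 4301 and 3760 kb away. The nearest H3K4me3 peak was 7432 kb from DSG3 and 7028 kb from DSC3, but 54.8 kb from SERPINB5.

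Of 13 tuft-cell genes, 8 had neither mark at the start. Neither mark was found over the gene or within 50 kb for 4 of them, beside 23.6% of all protein-coding genes. H3K4me3 was found at 4 of the 13 (30.8%) and H3K27ac at 2 (15.4%), beside 38.2% and 23.6% of all protein-coding genes, so the H3K4me3 share was near the background. POU2AF3, a coactivator of POU2F3, had both, with −log10 q of 3.999 for H3K27ac and 6.85 for H3K4me3. TRPM5 (3.37), SOX9 (1.55) and GNG13 (1.72) had H3K4me3 and ASCL2 had H3K27ac (1.37). AVIL had H3K27ac at another of its transcript starts. POU2AF2, the other coactivator of this family used by tuft cells, had neither at its own start, and its window, which reaches the neighbouring POU2AF3, held 5 H3K27ac peaks. Among paralogs and other relatives of the members, TP73, POU2F1, DLL4, INSM2 and VGF had H3K4me3 and no H3K27ac at the start. NEUROD2, NEUROD4, NEUROD6, NCAM2, POU2F2 and DLL1 had neither. NEUROD4 is also in the neuroendocrine list, and DLL1 and DLL4 are also in the Notch list.

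Among 13 genes of the neuronal repressor complex and the Notch and YAP pathways, which are known to restrain neuroendocrine fate, 9 had H3K4me3 at the start and 4 of these also H3K27ac. These are 69.2% and 30.8%, beside 38.2% and 23.6% of all protein-coding genes, so the H3K27ac share was near the background. REST, the factor that silences neuronal genes through RE1, had H3K4me3 (−log10 q 2.92) and its corepressor RCOR1 both marks (2.20 for H3K4me3 and 3.74 for H3K27ac). NOTCH1 (5.34 and 4.33), HES1 (3.64 and 3.27) and JAG1 (1.41 and 3.55) had both marks as well, and NOTCH3 (1.55), HEY1 (2.73), DLL4 (3.76) and YAP1 (4.20) had H3K4me3. NOTCH2, RBPJ, DLL1 and WWTR1 had neither at the outermost start, but each had H3K4me3 within 1 kb of another transcript start, and NOTCH2, RBPJ and WWTR1 also had H3K27ac at another start, as did YAP1. With any transcript start allowed, 45.4% of all protein-coding genes had H3K4me3 and 30.7% had H3K27ac.

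The labelled cell type was checked with 16 genes of lung epithelium and adenocarcinoma, of which 9 had H3K4me3 and 9 had H3K27ac at the start. Over all protein-coding genes the shares were 38.2% and 23.6%, and 56.8% had neither mark. Both marks were found at NKX2-1 (1.58 for H3K4me3 and 2.82 for H3K27ac), the lineage factor of lung epithelium, and at FOXA1, CDH1 and the keratins KRT7, KRT8, KRT18 and KRT19, with values up to 18.9 for H3K4me3 and 14.8 for H3K27ac at KRT8. Among the 5 surfactant genes SFTPD had H3K4me3 (2.49) and no H3K27ac at the start. The other surfactant genes SFTPA1, SFTPA2, SFTPB and SFTPC and the adenocarcinoma marker NAPSA had neither mark at their outermost start, and NAPSA had H3K4me3 at another transcript start. EPCAM had H3K4me3 at the start (4.28) and H3K27ac at another transcript start. Of 10 markers of blood, endothelium, muscle, fibroblasts, liver and pancreatic islets, none had a peak of either mark within 1 kb of the start. Over the gene or within 50 kb, 5 of the 10 had H3K27ac and 5 had H3K4me3. The shares of all protein-coding genes in such windows were 63.9% and 70.2%. COL1A1, a collagen gene of fibroblasts, had both marks at another transcript start. These lists were small and chosen, and no test of their difference from the 9 genes was made.

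**Figure D5:**
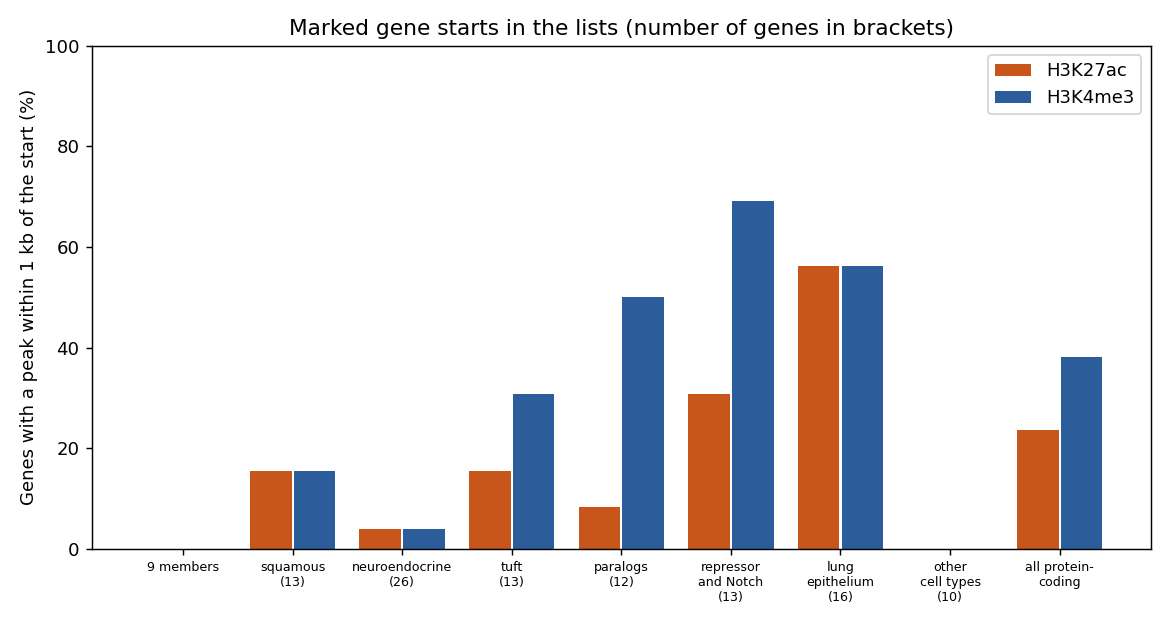
Share of genes (y axis, %) with an H3K27ac (orange) or H3K4me3 (blue) peak within 1 kb of the gene start, for the 9 genes, 7 further lists with their number of genes in brackets, and all protein-coding genes. No bar is present for the 9 genes or for the markers of other cell types, the neuroendocrine bars are at 3.85%, and the bars of the repressor and Notch list reach 30.8% and 69.2%.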

How the data were processed

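Peak lists of 2 ChIP-seq libraries, 1 of H3K27ac and 1 of H3K4me3, were analysed. Input chromatin had been kept for normalisation, and its library was not analysed here. According to the study's methods and the submitters' processing notes, the authors aligned reads to hg19 using Bowtie 1.1.1 and took peaks from MACS2 2.1.0. The calling threshold, the treatment of duplicate or multiply aligned reads and the use of the input in calling are not given in the sources used here. The deposited lists give for each summit a value without a header, read as −log10 q from the numbers (smallest 1.30 and 1.31, where a q of 0.05 is 1.30). It ranks peaks within a list and grows with depth, which is unknown.

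Distinct intervals were taken as peaks (24096 of 25275 H3K27ac entries, 18585 of 20282 H3K4me3 entries), with the highest value kept. All lay within the chromosomes of GRCh37, the same build. Positions are 1-based. Gene positions came from GENCODE 44 mapped to that build, without the mitochondrial genome, and a gene start was the outermost 5′ end. Exons split by gaps of under 5 bases in the mapped annotation were rejoined. CpG content, motifs and sequences used the canonical transcript start. Intervals of shares are exact Clopper-Pearson 95% intervals and cover counting error only. Counting functions were tested on simulated data. Python 3.11.15, pandas 2.3.3 and scipy 1.17.1 were used. All members, every peak in their windows and the genes nearest to these were named. From the further lists, genes were named when both marks or neither lay at the start, or as known partners. The members and lists were chosen with earlier results of these data known. Some genes and sequences are not reported here. PECAM1 was the only listed gene not found by symbol. Alternatives varied the window, threshold, merging, overlap, start definition and background.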

Additional observations from a re-analysis of the deposited data

How the results depend on the processing

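No paired analysis was possible because the H3K27ac and H3K4me3 libraries were single, which also left no replicate to omit. For 13 results, 79 alternative values were computed, of which 38 stayed within their tolerance (a factor of 1.5 for counts, the 95% interval for shares) and 41 moved. Leaving out POU2F3 or the repeated peaks was chosen after seeing the data. The absence of peaks at the 9 starts could not change with merging or the thresholds. Merging filled only gaps of up to 1 kb between peaks, and the thresholds only removed peaks. These settings are among the 38 values that stayed, and they are no check of the absence. The absence changed for H3K27ac with every transcript start (1 gene, POU2F3) and for H3K4me3 within 3 kb (1 gene, NCAM1).

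With windows of 10 kb, 3 of the 9 genes had H3K27ac and 4 had H3K4me3, beside 48.9% and 56.8% of all genes. The peaks then numbered 5 and 5, and 2 H3K27ac peaks overlapped H3K4me3. With 100 kb, 6 of the 9 genes had H3K27ac and 8 had H3K4me3, beside 72.4% and 78% of all genes. There were then 30 H3K27ac and 27 H3K4me3 peaks and 11 overlaps. Above the list median, H3K4me3 was left in the window of 1 gene with 3 peaks, over the body of 0 genes, and 3 H3K27ac peaks overlapped. The shares of all genes were then 50.9% and 54.4% for the window and 14.8% and 25.2% for the start. At a −log10 q of at least 5, H3K27ac was found in 0 windows and 0 bodies with 0 peaks and 0 overlaps, and H3K4me3 in 1 window with 1 peak and 0 bodies. All genes then had 17.7% and 30.8% for the window and 3.53% and 10.7% for the start. Within 3 kb of the start, 29.9% and 43.3% of all genes were marked, and with every transcript start 30.7% and 45.4%. Over all annotated genes, noncoding ones included, the shares were 46.9% and 51.2% for the window and 11.3% and 16.8% for the start. Without POU2F3, 6 H3K27ac peaks were left. These changes follow from how each alternative removes or adds peaks, starts or genes. The unknown depth limits every statement on absence.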
